A study of Schizosaccharomyces pombe with 24 samples.

Results

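The genes described here encode proteins of the mitochondrial ribosome and of the respiratory chain of the fission yeast Schizosaccharomyces pombe, taken as every probe set whose annotated gene symbol begins with mrpl, mrps, mrp, rsm, cox, atp, qcr or sdh followed by a digit, with the brightest probe set kept for each gene. The rule used names and no measured change. It gave 85 genes with 1 probe set each, out of 4981 features tested, of which 2899 carried a gene symbol. The ribosome prefixes held 47 genes (24 mrpl, 10 mrp, 8 rsm and 5 mrps) and the respiratory prefixes held 38 (17 atp, 11 cox, 7 qcr and 3 sdh). By role, 27 were proteins of the large and 19 of the small subunit of the mitochondrial ribosome, 3 were subunits of complex II, 7 of complex III, 7 of complex IV and 12 of complex V (ATP synthase), and 9 were factors that assemble complexes IV and V or express their genes (atp10, atp11, atp12, atp23, atp25, cox10, cox17, cox18 and cox24). The remaining gene, rsm1, shares the prefix but is annotated as an mRNA export factor. All 85 are nuclear genes, with 32 on chromosome I, 33 on chromosome II and 20 on chromosome III, and 0 lie on the mitochondrial genome. The current RefSeq annotation holds 117 genes whose symbol fits the pattern, and those without such a symbol on the array were not analysed here.

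Total RNA from asynchronous cultures grown at 30 °C was hybridised to 24 one-colour Affymetrix expression arrays, to ask how far the histone acetyltransferases (HATs) Gcn5, Mst2, Elp3 and Mst1 control overlapping genes. The groups were Δgcn5 (3 arrays), Δmst2 (3), the double mutant Δgcn5 Δmst2 (3), mst1-ts (3), the triple mutant Δgcn5 Δelp3 Δmst2 (1), Δgcn5 Δelp3 (2), Δmst2 Δelp3 (3), Δelp3 (3) and wild type (3). The mst1-ts strain carries mst1, an essential gene, as a temperature sensitive allele under the nmt promoter at the leu1 locus, in cells with the native mst1 deleted, and was grown at a semi-permissive temperature. The titles of its arrays read mst2-ts and their genotype field mst1, which was followed here, and the sources name more than 1 wild-type strain, so which of them was hybridised is not settled. The study's methods describe 3 independent isolates per genotype, and the p-values measure the spread between these arrays.

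Gcn5 and Mst2 acetylate histone H3, Mst1 belongs to the same MYST family as Mst2 and acetylates histone H4, and Elp3 is the catalytic subunit of the Elongator complex, which modifies transfer RNA. The mitochondrial ribosome translates the few proteins that the mitochondrial genome encodes, most of them core subunits of complexes III, IV and V. The rest of both machines is made from nuclear messages and imported, so every respiratory complex except complex II joins products of both genomes. Complex II passes electrons from succinate to ubiquinone, complex III passes them on to cytochrome c, complex IV reduces oxygen, and complex V makes ATP from the proton gradient. Fission yeast has no complex I, and unlike budding yeast it does not readily survive the loss of its mitochondrial DNA.

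The deleted genes were read first. The elp3 probe set lay between 5.93 and 6.98 on the 9 arrays of strains lacking elp3, and between 11.04 and 12.03 on the other 15 (log2 intensity). 2 libraries, replicate 2 of Δgcn5 and replicate 2 of Δmst2, went against their labels. In gcn5 and mst2 each of them read like the strain named on the other. The gcn5 probe set read 5.37, 10.93 and 5.72 in the Δgcn5 libraries and 10.95, 5.43 and 10.94 in the Δmst2 libraries, against 11.05, 10.81 and 10.58 in wild type. The mst2 probe set read 9.91, 5.21 and 10.00 in the Δgcn5 libraries and 5.18, 10.01 and 5.28 in the Δmst2 libraries, against 9.89, 8.73 and 10.13 in wild type. The second wild-type library also stood apart in the marker gene ura4, at 12.85 against 7.40 and 7.45 in the others. In the study's strain list ura4+ is the marker that replaces mst2 in the strains lacking mst2. The same library was the lowest of wild type in mst2, at 8.73 against 9.89 and 10.13. It is part of the reference in every comparison with wild type, and the origin of these readings was not tested. The mst1 probe set, which cannot check the allele, read 11.94, 11.61 and 11.38 in mst1-ts, against 10.56, 10.58 and 10.09 in wild type. The labels give 2 experiment dates, the first with 14 and the second with 10 arrays. All strains lacking elp3 and replicate 3 of Δgcn5 Δmst2 were on the second date and all other arrays, wild type included, on the first. Mating type markers also differed between strains. Both P-cell markers were higher in mst1-ts (map2 at 10.92 to 11.13), in Δgcn5 Δmst2 (13.51 to 14.01) and in the triple mutant (11.95) than on the other arrays (6.72 to 8.08). All 4 M-cell markers were highest in the triple mutant, in the library labelled Δmst2 replicate 2 and in the libraries labelled Δgcn5 replicates 1 and 3 (mfm2 at 12.60, 13.64, 13.56 and 14.01, against 5.35 to 8.21 elsewhere). The part of mating type in the values below was not tested. In the study's strain list the Δgcn5 and Δgcn5 Δmst2 strains named for these arrays also carry the his3-D1 allele. It is not listed for the triple mutant, the other mutants or the wild-type strains, and its part was not tested.

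The messages of the respiratory chain and those of the mitochondrial ribosome differed in their medians in Δgcn5 Δmst2 and in mst1-ts. In Δgcn5 Δmst2 the 29 respiratory subunits lay at a median of 0.42 above wild type while the ribosome genes lay at -0.01 (log2 difference), and in mst1-ts the ribosome genes lay at a median of -0.31 while the respiratory subunits lay at 0.05. The medians over all features were -0.01 and -0.07 in these strains. Of the 85 genes, 52 (61.2%) passed the test in at least 1 of the 7 replicated comparisons with wild type, a share near the 64.3% of all features that did, and 33 in none of them. A gene was called when its Benjamini-Hochberg adjusted p over all 4981 features was under 0.05 in limma. The 7 comparisons share the 3 wild-type arrays, so their counts are not independent of each other. In whole cultures a changed share of cells and a changed amount of RNA per cell cannot be told apart.

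**Figure D1:**
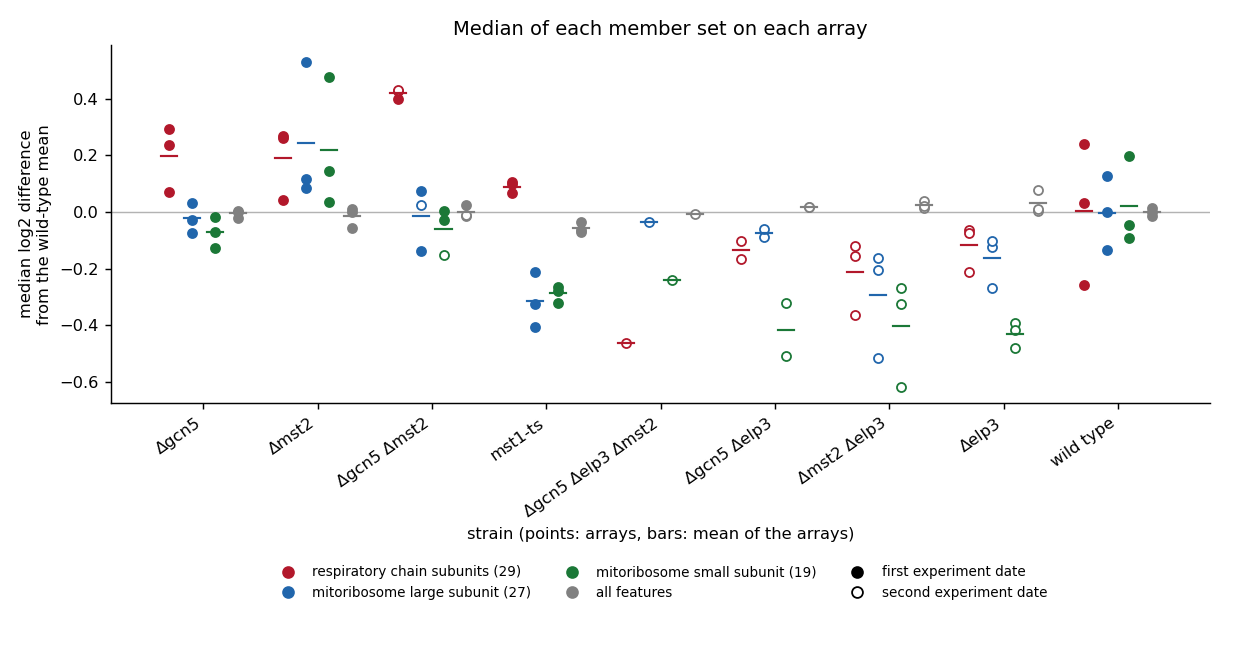
Median log2 difference from the wild-type mean of each gene set on each array (vertical axis) by strain (horizontal axis), with mutants left of wild type; points are arrays, bars are the mean of a strain's arrays, filled points are from the first and open points from the second experiment date. The respiratory subunits sit at 0.40 to 0.43 on the 3 Δgcn5 Δmst2 arrays and between -0.26 and 0.24 on the wild-type arrays, and both ribosome subunits sit below 0 on all 3 mst1-ts arrays.

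**Figure D2:**
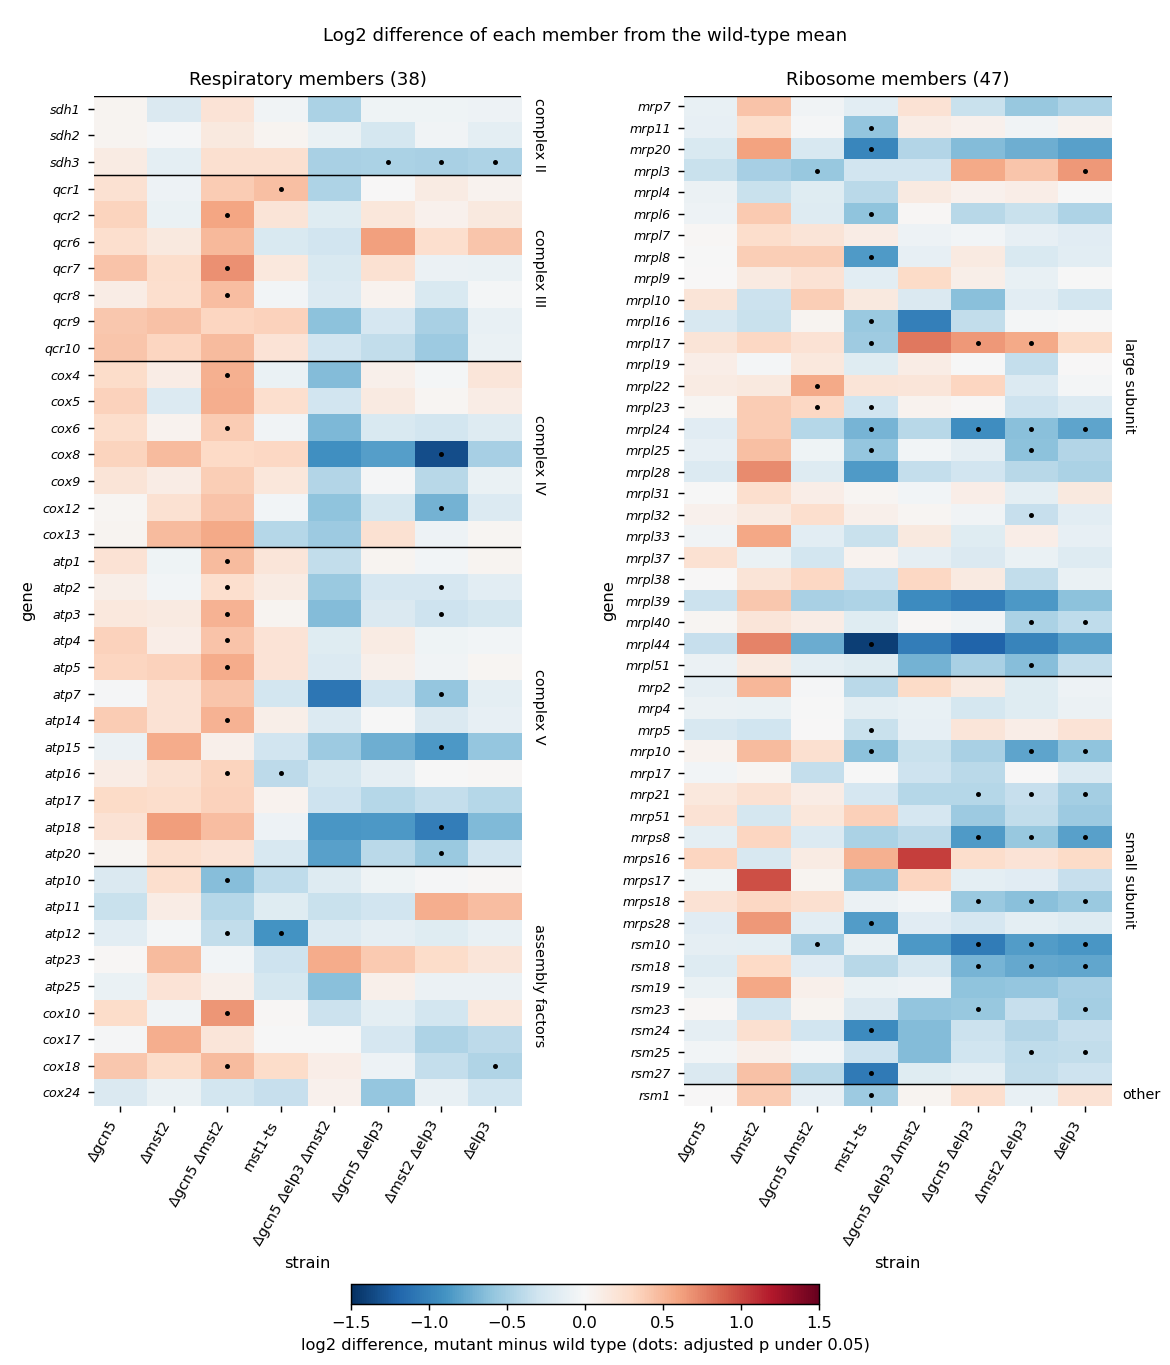
Log2 difference of each of the 85 genes (rows) from the wild-type mean in each mutant strain (columns), respiratory genes on the left and ribosome genes on the right, grouped by complex or subunit; dots mark an adjusted p under 0.05 in limma, and the triple mutant, with 1 array, has no test. The Δgcn5 Δmst2 column holds dots on 14 rising respiratory genes and the mst1-ts column on 1, and falling ribosome genes have 16 dots in mst1-ts, 12 in Δmst2 Δelp3, 10 in Δelp3, 7 in Δgcn5 Δelp3 and 2 in Δgcn5 Δmst2.

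In Δgcn5 Δmst2, 14 of the 38 respiratory genes rose and 2 fell, where 13.6% of all features rose and 11.3% fell. All 14 that rose except cox10 and cox18 were subunits: 12 of 29 subunits rose, 0 fell, and all 29 had a positive difference, between 0.08 and 0.68. By complex, 7 of 12 subunits of complex V rose (atp1, atp2, atp3, atp4, atp5, atp14 and atp16), as did 3 of 7 of complex III (qcr2, qcr7 and qcr8) and 2 of 7 of complex IV (cox4 and cox6). None of the 3 subunits of complex II passed the test, at a median of 0.20. On the arrays themselves, 20 of the 29 subunits lay above every wild-type array on all 3 Δgcn5 Δmst2 arrays, as 21.6% of all features did.

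Of the subunits, the largest rise was that of qcr7 (SPCC737.02c), a subunit of the cytochrome bc1 complex, complex III. It read 14.16, 14.15 and 14.02 in Δgcn5 Δmst2, against 13.69, 13.45 and 13.16 in wild type. The groups did not overlap, and the difference was 0.68 ± 0.15 (SE), a 1.60-fold increase (adjusted p = 0.0036, limma, n = 3 each). The core protein qcr2 (SPCC613.10) of the same complex read 13.87, 13.79 and 13.76 in Δgcn5 Δmst2, against 13.20, 13.39 and 13.03 in wild type, again without overlap (0.60 ± 0.16, adjusted p = 0.0126, limma). In complex V, atp5 (SPCC1840.06), the stalk subunit that ties the catalytic head to the membrane part, read 13.70, 13.64 and 13.64 in Δgcn5 Δmst2, against 13.41, 13.14 and 12.78 in wild type (0.55 ± 0.15, adjusted p = 0.0111, limma). All 3 mutant arrays again lay above all wild-type arrays. The smallest adjusted p in complex V belonged to atp3 (SPBC1734.13), the central shaft subunit, with 13.51, 13.46 and 13.53 in Δgcn5 Δmst2 and 13.12, 13.10 and 12.72 in wild type (0.52 ± 0.11, adjusted p = 0.0026, limma). Its lowest mutant array lay above its highest wild-type array. The catalytic subunits atp1 and atp2 rose by less, 1.39-fold and 1.19-fold. The mutant arrays were closer together than the wild-type arrays: the median of the 29 subunits was 0.43, 0.40 and 0.43 on the Δgcn5 Δmst2 arrays, against 0.24, 0.03 and -0.26 on the wild-type arrays.

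**Figure D3:**
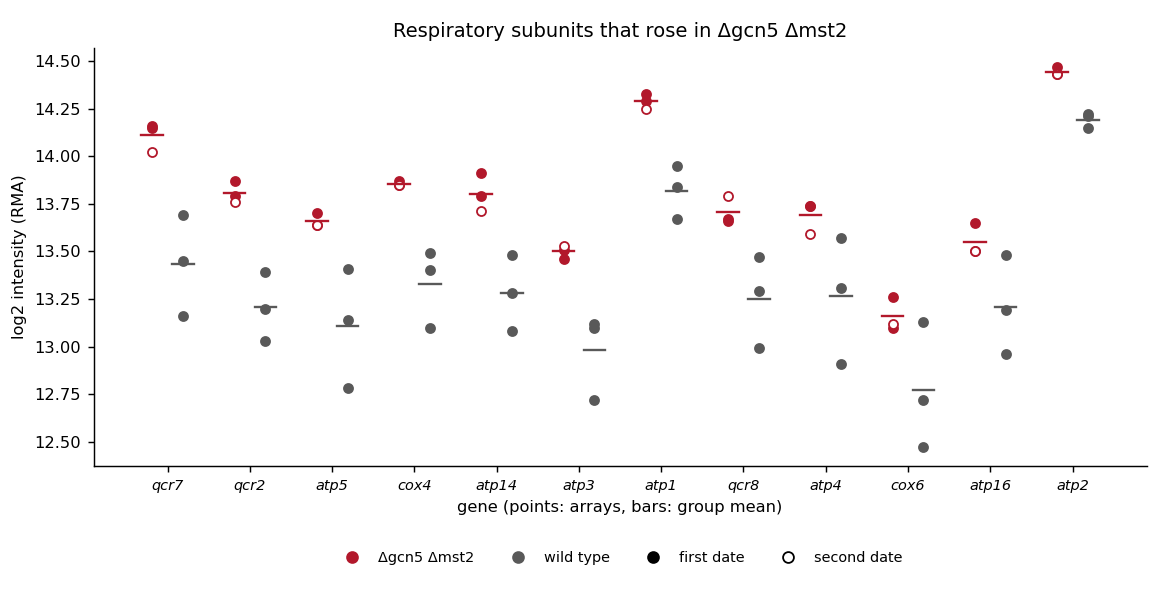
Log2 intensity (vertical axis) of the 12 respiratory subunits that rose in Δgcn5 Δmst2 (horizontal axis, ordered by the size of the difference), with Δgcn5 Δmst2 arrays left of wild-type arrays for each gene; points are arrays, bars are group means of 3 arrays, and the open point is the Δgcn5 Δmst2 array of the second experiment date. In 11 of the 12 genes the lowest mutant array lies above the highest wild-type array, and cox6 is the exception. The genes were chosen by the test on these arrays, so this separation is not separate evidence.

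Of the 9 factors that build these complexes, 2 rose and 2 fell in Δgcn5 Δmst2, at a median of -0.04. cox10 (SPBC365.02c), which makes the haem precursor of complex IV, read 9.56, 9.54 and 9.57 in Δgcn5 Δmst2, against 8.52, 8.98 and 9.17 in wild type (0.67 ± 0.21, adjusted p = 0.0266, limma). All 3 mutant arrays lay above wild type. cox18 (SPCC1442.15c), whose budding yeast homologue inserts a complex IV subunit into the membrane, also rose (0.47 ± 0.15, adjusted p = 0.0262, limma). atp10 (SPAC4G8.11c), known from budding yeast to help assemble the membrane part of complex V, fell to 8.96, 9.04 and 9.42 in Δgcn5 Δmst2, against 9.83, 9.97 and 9.54 in wild type (-0.63 ± 0.16, adjusted p = 0.00935, limma). atp12 (SPAC9.12c), the chaperone for the α subunit of the catalytic head in budding yeast, fell by 0.37 on the log2 scale.

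Among the 47 ribosome genes 2 rose and 2 fell in Δgcn5 Δmst2, and the members above and below wild type were near equal in number, 22 and 25. Over all features 13.6% rose and 11.3% fell in this strain, which also sets the scale for the lists below. The large-subunit genes mrpl22 and mrpl23 rose by 0.57 and 0.32, and mrpl3 and the small-subunit gene rsm10 fell by 0.57 and 0.50 (log2). Of 112 cytosolic ribosomal protein genes 0 rose and 10 fell, at a median of -0.08. The lists count only genes measured under the listed symbol, 8 of 13 in the tricarboxylic acid cycle list. In the list of cytochromes and mitochondrial dehydrogenases 5 of 10 were measured. In the tricarboxylic acid cycle list 4 of 8 genes rose and 0 fell, namely idh2 (0.92) and idh1 (0.66) of isocitrate dehydrogenase, kgd2 (0.84) of α-ketoglutarate dehydrogenase and fumarase fum1 (0.51). In the list of cytochromes and mitochondrial dehydrogenases 3 of 5 rose. These were cytochrome c1 (cyt1, 0.65) and the Rieske iron-sulphur protein (rip1, 0.62), both of complex III, and etr1 (1.05), which is neither a cytochrome nor a respiratory dehydrogenase but an enoyl reductase of mitochondrial fatty acid synthesis. By contrast, 0 of 4 pyruvate dehydrogenase genes and 0 of 4 genes of the CCAAT-binding Php complex passed the test, 2 of 30 genes of the import and chaperone list fell (tim22 at -0.99 and tim44 at -0.70) and 0 rose (the list also holds tim11, now known as an ATP synthase subunit, which did not pass), and in the iron-sulphur and haem list 1 of 15 rose and 3 fell. Of the 9 genes measured in the list of respiratory chain assembly (25 listed) 1 rose and 2 fell. Of 14 mitochondrial translation and mRNA factors (24 listed) 3 rose and 2 fell. Of 5 genes of mitochondrial DNA and transcription (7 listed) 1 rose and 1 fell.

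Date and single arrays bore on these counts. With the 14 arrays of the first date alone (2 of Δgcn5 Δmst2 against 3 of wild type), 3 respiratory genes rose (qcr7, atp3 and cox18) and 1 fell (atp10), where 8.61% of all features were called, and the median over the subunits was 0.39. With date as a covariate 8 rose and 2 fell, where 11% of all features rose and 8.65% fell. Without wild-type replicate 3 the count called was 8, where 23.2% of all features were called, and the median over the 38 respiratory genes was 0.25 in place of 0.38. Without wild-type replicate 2 the count was 9 (19.7% of all features), and without replicate 1, 2 or 3 of Δgcn5 Δmst2 it was 10, 9 and 10 (20.3%, 17.3% and 19.7%). The ribosome count, 4 with all arrays, was 0 to 2 when any of these 5 arrays was left out.

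In mst1-ts, 16 of the 47 ribosome genes fell and 0 rose, where 21.8% of all features fell and 13.7% rose. The fall took in 10 of 27 large-subunit and 5 of 19 small-subunit genes, and rsm1 (-0.54 ± 0.15, adjusted p = 0.0103, limma), which is not a ribosomal protein. In both subunits the median was -0.31, and 39 of the 47 lay below the wild-type mean. On the arrays, 23 of the 47 lay below every wild-type array on all 3 mst1-ts arrays, as 29.5% of all features did. The respiratory genes were spread about 0, at a median of 0.00, with 1 that rose and 2 that fell.

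The largest fall was that of the large-subunit gene mrpl44 (SPBC56F2.14), which read 8.93, 8.17 and 9.52 in mst1-ts, against 10.90, 9.98 and 9.99 in wild type. The groups did not overlap, although both were spread over more than the difference between their nearest arrays, and mst1-ts was 2.67-fold lower (-1.42 ± 0.43, adjusted p = 0.0163, limma). rsm27 (SPBC30D10.12c), a small-subunit protein, read 9.23, 9.25 and 9.72 in mst1-ts, against 10.86, 10.34 and 10.20 in wild type (-1.07 ± 0.25, adjusted p = 0.00348, limma). mrp20 (SPAC31A2.08), a protein at the exit of the large subunit's peptide tunnel, read 9.61, 9.53 and 10.08 in mst1-ts, against 11.11, 10.49 and 10.56 in wild type (-0.98 ± 0.29, adjusted p = 0.0129, limma). In both genes all mst1-ts arrays were below all wild-type arrays. The small-subunit gene rsm24 (SPAC2F7.15) had the smallest adjusted p of the ribosome genes, with 11.22, 10.79 and 11.23 in mst1-ts and 12.34, 12.00 and 11.73 in wild type (-0.94 ± 0.16, adjusted p = 0.000186, limma). The other 11 ribosomal proteins that fell did so by between 0.30 (mrpl23) and 0.84 (mrpl8). Among the 16, which the test chose on these same arrays, the groups overlapped in mrpl16 alone.

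**Figure D4:**
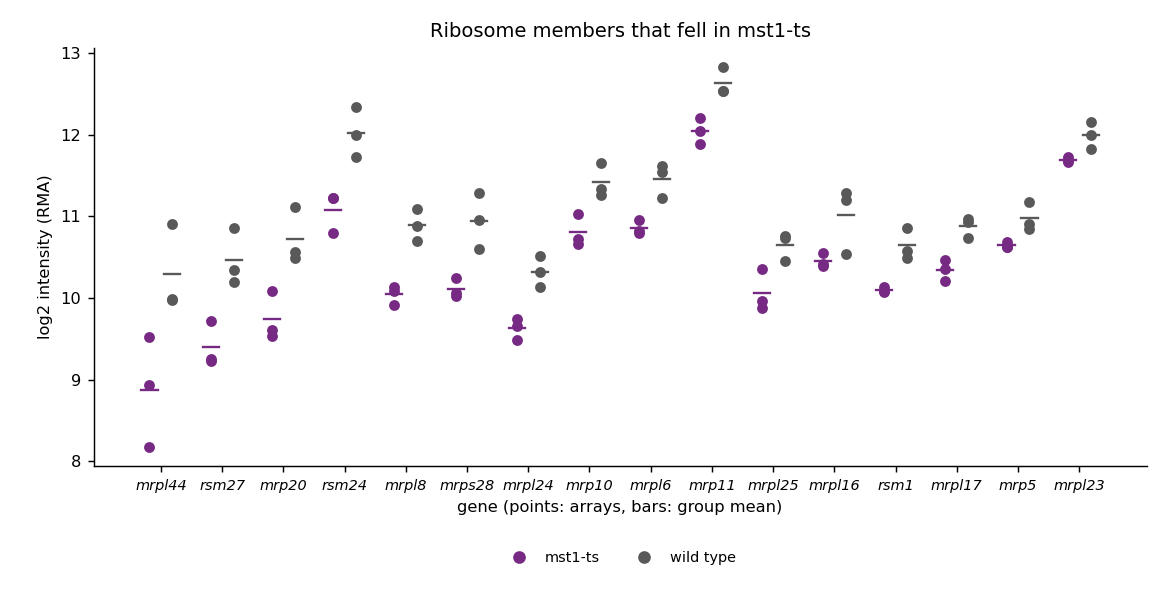
Log2 intensity (vertical axis) of the 16 genes with ribosome prefixes that fell in mst1-ts (horizontal axis, ordered by the size of the difference), with mst1-ts arrays left of wild-type arrays for each gene; points are arrays and bars are group means of 3 arrays. In 15 of the 16 genes every mst1-ts array lies below every wild-type array, and mrpl16 is the exception. The genes were chosen by the test on these arrays, so this separation is not separate evidence.

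Within the respiratory family, atp12, the F1 chaperone, fell to 8.70, 9.18 and 8.83 in mst1-ts, against 9.75, 10.00 and 9.66 in wild type. That gap left no overlap, and its adjusted p was the smallest of the 85 genes (-0.90 ± 0.12, adjusted p = 1.82e-05, limma). atp16, the δ subunit of complex V, fell by 0.39, and qcr1, a core subunit of complex III, rose by 0.45 with overlapping groups (adjusted p = 0.0468, limma). Of the ribosomal proteins of the cytosol, 3 of 112 genes fell and 0 rose, at a median of -0.01. Among the lists of other mitochondrial functions, 7 of 30 import and chaperone genes fell (23.3%) and 0 rose. Over all features 21.8% fell and 13.7% rose in this strain, so this share was near that of all features. The same shares set the scale for the other lists. The largest falls were those of tim54 (-1.14) of the inner membrane translocase and tim10 (-0.98), a chaperone of the space between the membranes. In the iron-sulphur and haem list 6 of 15 fell and 0 rose, led by hem14 (-1.17), protoporphyrinogen oxidase. The list of mitochondrial translation and mRNA factors was split, with 4 of 14 that rose and 4 that fell (ppr6 at -1.03 and ppr5 at 0.54, both pentatricopeptide repeat proteins that act on mitochondrial RNA). In the tricarboxylic acid cycle 2 of 8 rose (fum1 at 0.65 and idh1 at 0.51), and in the Php complex, which in fission yeast represses iron-using genes through php4, php4 (0.54) and php5 (0.37) rose.

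All mst1-ts arrays and all wild-type arrays share the first date, and a fit on that date's 14 arrays called 10 ribosome genes, all of which fell and all of which had been called with 24 arrays, where 16.1% of all features fell and 11.2% rose. Leaving out wild-type replicate 1, which was the highest of the 3 wild-type arrays in the median of the ribosome genes (0.15, against -0.015 and -0.103), left 7, where 26.5% of all features were called.

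In Δelp3, 10 of the 47 ribosome genes fell and 1 rose, where 8.49% of all features fell and 13% rose. The small subunit carried most of the fall, with 8 of 19 genes and a median of -0.37, while 2 of 27 large-subunit genes fell, at a median of -0.16. On the 3 Δelp3 arrays the small subunit's median was -0.39, -0.48 and -0.42, against 0.197, -0.045 and -0.093 in wild type. Of the 38 respiratory genes 2 fell (sdh3 and cox18) and 0 rose, at a median of -0.10. In Δgcn5 Δelp3, 7 ribosome genes fell (6 of the small subunit) and 1 rose, against 9.01% and 12.5% of all features, and 1 respiratory gene fell. In Δmst2 Δelp3, 12 ribosome genes fell (7 of the small and 5 of the large subunit) and 1 rose, against 9.19% and 12.7% of all features, and 9 respiratory genes fell. The small subunit's median was -0.41 in Δgcn5 Δelp3 and -0.37 in Δmst2 Δelp3. In Δgcn5 Δelp3, which has 2 arrays, leaving out replicate 1 or replicate 2 left 2 and 3 ribosome genes called, where 6.79% and 7.77% of all features were, with the lone array assumed to vary like the other groups.

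Every one of these differences from wild type sets arrays of the second experiment date against arrays of the first, so loss of elp3 and date cannot be told apart except through the Δgcn5 Δmst2 strain, which has arrays on both. With date as a covariate, estimated in that way, the 3 strains held 1 gene called among the 85, mrpl17, and the share of all features called in Δelp3 was 2.55%. The small subunit's median in Δelp3 was then -0.28. The values below are those without the covariate.

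Of the 85 genes 23 (27.1%) fell in at least 1 of the 3 strains, as 14.7% of all features did, and 7 (8.24%) fell in all 3, as 3.93% of all features did. The 3 comparisons share the wild-type arrays. These 7 were sdh3, the large-subunit gene mrpl24 and the small-subunit genes mrp21, mrps8, mrps18, rsm10 and rsm18. The largest change was that of rsm10 (SPBC211.01), with 9.41 and 9.39 in Δgcn5 Δelp3, 9.65, 9.63 and 9.57 in Δmst2 Δelp3 and 9.62, 9.43 and 9.67 in Δelp3, against 10.30, 10.62 and 10.42 in wild type. The 8 arrays lay below all wild-type arrays, and the difference was -1.05 ± 0.20, -0.83 ± 0.18 and -0.88 ± 0.18 in the same order (adjusted p = 0.00136, 0.00364 and 0.00238, limma). The Δgcn5 Δmst2 array of the second date, which holds elp3, read 9.55 for this gene, within the range of the strains lacking elp3, and the 2 arrays of that strain on the first date read 10.05 and 10.24. rsm10 was among the 2 ribosome genes that fell in Δgcn5 Δmst2.

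mrps8 (SPCC736.10c) read 10.86 and 11.07 in Δgcn5 Δelp3, 11.19, 11.17 and 11.40 in Δmst2 Δelp3 and 11.10, 10.88 and 11.02 in Δelp3, against 12.03, 11.74 and 11.70 in wild type. The second-date array of Δgcn5 Δmst2 lay between the groups at 11.43. rsm18 (SPCC18B5.04) read 11.52 and 11.55 in Δgcn5 Δelp3, 11.55, 11.28 and 11.55 in Δmst2 Δelp3 and 11.46, 11.40 and 11.50 in Δelp3, against 12.43, 11.99 and 12.28 in wild type. Here the second-date array of Δgcn5 Δmst2 read 11.99, level with the lowest wild-type array. sdh3 (SPCC330.12c), the membrane anchor subunit of complex II, read 13.10 and 13.29 in Δgcn5 Δelp3, 13.25, 13.21 and 13.09 in Δmst2 Δelp3 and 13.34, 13.08 and 13.18 in Δelp3, against 13.59, 13.71 and 13.71 in wild type. The second-date array of Δgcn5 Δmst2 read 13.88 for sdh3, above wild type. The 7 genes thus differed in where this array lay, from within the strains lacking elp3 (rsm10) to above wild type (sdh3). The triple mutant, also of the second date, read 9.59, 11.43, 11.99 and 13.18 for rsm10, mrps8, rsm18 and sdh3.

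**Figure D5:**
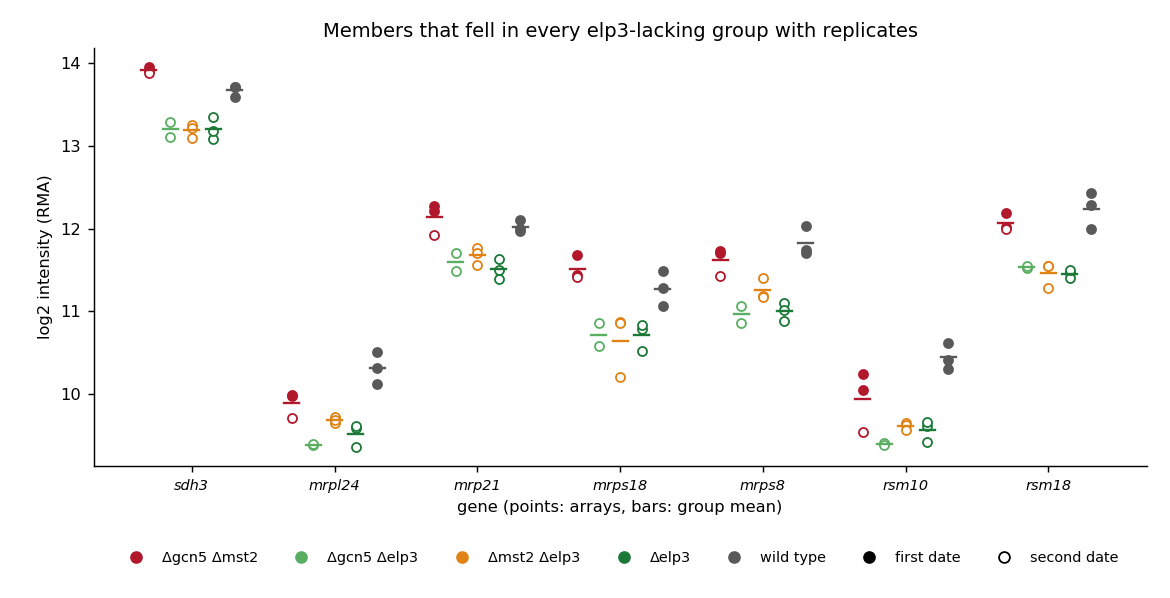
Log2 intensity (vertical axis) of the 7 genes that fell in each replicated strain lacking elp3 (horizontal axis), with Δgcn5 Δmst2, Δgcn5 Δelp3, Δmst2 Δelp3 and Δelp3 arrays left of wild type for each gene; points are arrays, bars are group means, and open points are arrays of the second experiment date. The open Δgcn5 Δmst2 point lies among the strains lacking elp3 for rsm10 (9.55) and above wild type for sdh3 (13.88).

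The large-subunit genes mrpl17 and mrpl3 went the other way. mrpl17 (SPCC126.05c) read 11.47 and 11.58 in Δgcn5 Δelp3 and 11.42, 11.44 and 11.47 in Δmst2 Δelp3, against 10.93, 10.97 and 10.74 in wild type, and both doubles lay above wild type on every array (0.65 ± 0.13 and 0.56 ± 0.12, adjusted p = 0.0024 and 0.00303, limma). In Δelp3 it read 11.03, 11.12 and 11.36 and did not pass the test, and in the triple mutant it read 11.67. With date as a covariate mrpl17 still rose in both doubles (0.93 and 0.85, adjusted p = 0.0252 and 0.0392, limma). That date term rests on the 1 array of Δgcn5 Δmst2 from the second date. mrpl3 (SPBC3B9.14c) read 10.88, 10.89 and 10.80 in Δelp3, against 9.89, 10.47 and 10.25 in wild type without overlap (0.65 ± 0.18, adjusted p = 0.0145, limma). It was among the 2 ribosome genes that fell in Δgcn5 Δmst2.

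The respiratory genes that fell in Δmst2 Δelp3 were 6 of 12 subunits of complex V (atp2, atp3, atp7, atp15, atp18 and atp20), 2 of 7 of complex IV (cox8 and cox12) and sdh3. cox8 (SPAC24C9.16c), a small subunit of complex IV, read 11.81, 10.12 and 11.68 in Δmst2 Δelp3, against 12.93, 12.40 and 12.30 in wild type (-1.33 ± 0.32, adjusted p = 0.00745, limma). atp18 (SPAC23C4.11), a small subunit of the membrane part of complex V, read 11.83, 10.91 and 11.95 in Δmst2 Δelp3, against 12.94, 12.42 and 12.45 in wild type (-1.04 ± 0.30, adjusted p = 0.0201, limma). Both genes were below wild type on every array, and in both the array of replicate 2 was the lowest. That array also had the lowest medians of its group over the ribosome genes (-0.515, against -0.207 and -0.214) and over the respiratory genes (-0.296, against -0.154 and -0.104). Without it 3 ribosome genes fell and 1 rose, and 3 respiratory genes fell, where 10.9% of all features were called. Without wild-type replicate 1, 6 ribosome and 2 respiratory genes were called (16.2% of all features), and without wild-type replicate 2, 4 respiratory genes (15.1%).

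In the other mitochondrial lists, the strains lacking elp3 shared a few calls. sco1, which delivers copper to complex IV, fell by 1.00, 0.93 and 0.85 in Δgcn5 Δelp3, Δmst2 Δelp3 and Δelp3 (log2), and php4 fell by 0.87, 0.74 and 0.64. etr1 fell by 1.53, 1.19 and 1.41. mss1, whose budding yeast homologue modifies mitochondrial transfer RNA, rose by 0.84, 0.56 and 0.74. Of the 30 import and chaperone genes 6, 4 and 4 fell (20%, 13.3% and 13.3%) and 0 rose. Among them were phb2, a prohibitin of the inner membrane, and tim18 in all 3 strains. The probe set of tim18 carried the symbol sdh4 in the platform annotation and is not among the 85 genes. It is counted here in the import list. By the platform symbols it would be a respiratory gene, and the family would hold 86 genes. Of 112 cytosolic ribosomal protein genes 9, 19 and 5 fell (8.04%, 17% and 4.46%) and 0 rose. In the same order, 9.01%, 9.19% and 8.49% of all features fell, so the cytosolic share was above that in Δmst2 Δelp3 alone. These lists carry the same date difference.

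Set against Δelp3, which shares their date, the double mutants held 0 called genes among the 85, where 1.1% of all features were called for Δgcn5 Δelp3 and 0.763% for Δmst2 Δelp3. At an unadjusted p under 0.05, limma gave 4 of the 85 genes in Δgcn5 Δelp3 and 7 in Δmst2 Δelp3, where 9.36% and 6.1% of all features passed. The ribosome genes lay at medians of 0.02 and -0.07 and the respiratory genes at -0.01 and -0.08. The widest difference in Δgcn5 Δelp3 was that of atp11 (SPAC3A12.12), the chaperone for the β subunit of the catalytic head in budding yeast. It read 11.09 and 11.05 in Δgcn5 Δelp3, against 11.66, 11.89 and 11.89 in Δelp3, without overlap (-0.74 ± 0.23, adjusted p = 0.18, limma with 24 arrays). With the second date's 10 arrays alone the same difference passed the test (SE 0.12, adjusted p = 0.00834, limma). Elsewhere atp11 read 10.77, 10.97 and 11.05 in Δgcn5 Δmst2, 11.02 in the triple mutant and 11.92, 11.73 and 12.03 in Δmst2 Δelp3, against 11.46, 11.55 and 11.05 in wild type. In the libraries labelled Δgcn5 it read 10.75, 11.49 and 10.83 and in those labelled Δmst2 11.89, 11.00 and 11.53, so that in both groups the library that went against its label stood apart from the other 2.

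In the single mutants of the first date no gene of the 85 passed the test, for Δgcn5 where 0% of all features rose and 0.12% fell, and for Δmst2 where 0% rose and 0.161% fell. At an unadjusted p under 0.05, limma gave 1 ribosome and 5 respiratory genes in Δgcn5, where 6.36% of all features passed. In Δmst2 it gave 16 ribosome and 4 respiratory genes, where 16.9% of all features passed. In Δgcn5, 27 of the 29 respiratory subunits had a positive difference, at a median of 0.22, while the ribosome genes lay at -0.07. Without replicate 2 of Δgcn5 and replicate 2 of Δmst2, whose libraries went against their labels, 3 respiratory genes rose in Δgcn5 and 1 fell, where 3.47% of all features rose and 2.61% fell. In that fit 28 of the 29 subunits had a positive difference, at a median of 0.27. qcr7 read 13.99, 13.47 and 14.11 in the 3 libraries labelled Δgcn5, against 13.69, 13.45 and 13.16 in wild type, and the array at 13.47 is the one left out (0.62 ± 0.13, adjusted p = 0.00891, limma, n = 2 and 3). atp14, a stalk subunit of complex V, and cox18 also rose (0.51 and 0.54, adjusted p = 0.0332 and 0.0429, limma), and atp11 fell by 0.56 (adjusted p = 0.0418, limma). In the fit with all arrays the 4 genes did not pass. In Δmst2 the medians were 0.26 over the ribosome genes and 0.21 over the respiratory genes, and 1 array carried much of the ribosome value. Replicate 1 had a ribosome median of 0.492, against 0.059 and 0.141 in replicates 2 and 3. Without replicate 1 the median over the group was 0.11. That value rests in part on replicate 2, which read as lacking gcn5 and holding mst2. Without replicate 2 of both single mutants the ribosome median in Δmst2 was 0.33.

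For the triple mutant, with 1 array, there is no test and no replicate check. Against the wild-type mean, 1 ribosome gene was at least 2-fold higher (mrps16) and 2 were at least 2-fold lower (mrpl16 and mrpl44), and 1 respiratory gene was at least 2-fold lower (atp7), where 5.38% of all features were that much higher and 3.03% that much lower. atp7, subunit d of the stator of complex V, read 11.80 in the triple mutant, against 13.12, 12.95 and 12.56 in wild type. All 29 respiratory subunits had a negative difference, at a median of -0.46, and 22 lay below every wild-type array, as 34.6% of all features did. This is the opposite sign to Δgcn5 Δmst2, in which all 29 were positive. The array is of the second date, on which the median of the 29 subunits was 0.43 for the Δgcn5 Δmst2 array, between -0.36 and -0.06 for the strains lacking elp3 that had replicates, and -0.46 for the triple mutant. The P-cell markers were high in both Δgcn5 Δmst2 and the triple mutant, and the M-cell markers in the triple mutant alone of these. The his3-D1 allele is listed for Δgcn5 Δmst2 and not for the triple mutant. Against the Δelp3 mean, 0 genes were at least 2-fold higher and 1 (mrpl16, at -1.01) was at least 2-fold lower, where 4.16% and 3.07% of all features were, and the medians were 0.13 over the ribosome genes and -0.33 over the respiratory genes.

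Whether losing 1 HAT had another effect in the absence of a second was tested as an interaction. No gene of the 85 passed for gcn5 with elp3, mst2 with elp3 or gcn5 with mst2, where 0.341%, 0.381% and 1.39% of all features did. The smallest adjusted p among the 85 was 0.0938, for a ribosome gene in the interaction of gcn5 with mst2. At an unadjusted p under 0.05, limma gave 2, 16 and 6 of the 85 in the 3 interactions, where 4.02%, 9.68% and 11.3% of all features passed. The interactions rest on the doubted libraries through the single mutants. The respiratory subunits of Δgcn5 Δmst2 are therefore not shown to differ from the sum of the 2 single mutants. The median interaction of gcn5 with mst2 over the 38 respiratory genes, factors included, was 0.02. Without the doubted libraries it was -0.01 over the 38 genes and 0.10 over the 29 subunits, and 0 of them were called.

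Across the 9 group means the respiratory subunits varied together. The mean correlation over their pairs was 0.691, against 0.294 over pairs of ribosome genes, 0.086 between assembly factors and subunits and 0.0083 over pairs of all features, as a description over 9 means that share dates and normalization. Taken as deviations from the group means over the 23 arrays of groups with replicates, the same figures were 0.311, 0.212, 0.0506 and 0.0105. Both sets of figures include the Δgcn5 and Δmst2 libraries that went against their labels. Each profile was also set against the mean of the other respiratory subunits, of which complex V supplies the most. The median correlation was 0.906 over complex V, 0.893 over complex III, 0.843 over complex IV and 0.729 over complex II, and atp3 had the highest value among the respiratory genes (0.984), while qcr6 of complex III had the lowest among the subunits (0.295). For the 9 factors the median correlation with that mean was -0.154, with atp23 at the low end (-0.542). Among the 8 groups with replicates, the highest group mean was that of Δgcn5 Δmst2 for 3 of 3 subunits of complex II, 4 of 7 of complex III, 6 of 7 of complex IV and 9 of 12 of complex V. The lowest was that of a strain lacking elp3 for 2, 4, 4 and 10 of them. Of these 8 groups 3 lack elp3, all of the second date. No share over all features was computed for these counts.

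Over the 8 groups with replicates, the range between the highest and lowest group mean had a median of 0.94 over the small subunit and 0.85 over the large subunit of the ribosome, 0.76 to 0.79 over complexes III, IV and V, and 0.42 over complex II (log2 differences within a gene). The sets differ in signal level: 86.8% of the respiratory and 55.3% of the ribosome genes lay above the median feature. The part of level in these ranges was not tested. The widest ranges were those of mrpl44 (2.17) in the ribosome and of cox8 (1.81) and atp18 (1.67) in the respiratory chain, and mrp4 of the small subunit was the steadiest of the 85 (0.27). The lowest group mean was that of mst1-ts for 11 of 27 large-subunit genes and 6 of 19 small-subunit genes, and that of a strain lacking elp3 for 14 and 12 of them. These counts likewise have no share over all features, and the strains lacking elp3 are all of the second date.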

How the data were processed

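RNA from 24 samples was measured on Affymetrix Yeast Genome 2.0 arrays. The deposited values are log2 intensities that the authors obtained by RMA, which corrects background, normalizes by quantiles and summarises probes (versions not given in the sources used here), and they were used unchanged. They ranged from 4.85 to 15.35, with array medians of 10.99 to 11.08, and 0 array pairs were identical. The number of arrays limits the precision.

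Control probe sets (29) and 18 dimmer probe sets of a gene were left out, which left 4981 features. Symbols came from the platform annotation, updated through the gene identifier to RefSeq ASM294v3 (2914 identifiers found, 110 symbols updated). The update renamed mrpl11 as mrp11 and mrps5 as mrp5, and turned sdh4 into tim18, which left the family. A probe set that carries several genes was not named.

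Group means were fitted to all 24 arrays with limma 3.58.1 in R 4.3.3 (15 residual degrees of freedom), with two-sided tests and Benjamini-Hochberg adjustment over 4981 features, and tested on simulated data. Genes named were up to 4 per family and direction with the largest change among those called, and others named were chosen after their values were seen. Same-numbered arrays deviated together (correlation of deviations from group means) in all 3 pairs of Δgcn5 with wild type (0.266, 0.264 and 0.465) and of Δmst2 with wild type (0.539, 0.142 and 0.161), which rests on the data and not on the labels. In no other comparison were all pairs over 0.1. The members and lists were chosen with earlier results of these data known. Alternatives were a date covariate, fits within a date, 2-group fits, array weights, a 1.7-fold minimum, a filter on the dimmest 20% of features, platform symbols, a replicate block and leaving out arrays.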

Additional observations from a re-analysis of the deposited data

Results flagged for a closer look

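1 result among the 85 genes called for a closer look, because effects of one deletion differed between 2 backgrounds by a test of the difference. Without replicate 2 of Δgcn5 and replicate 2 of Δmst2, whose libraries went against their labels, the small-subunit gene mrp5 had an interaction of gcn5 with mst2 of 0.68 ± 0.15 (SE, log2, adjusted p = 0.0243, limma), where 3.63% of all features were called. It read 11.06, 10.84 and 11.03 in Δgcn5 Δmst2, 10.72, 10.88 and 10.60 in the libraries labelled Δgcn5 and 10.49, 10.80 and 10.74 in those labelled Δmst2, against 10.90, 11.18 and 10.84 in wild type. The values left out are 10.88 and 10.80. With all arrays mrp5 was not called.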

How the results depend on the processing

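Counts below are of genes called. The share of all features called also moved, so a count alone is not a result about these genes. With date as a covariate that share was 2.55% in Δelp3, 2.63% in Δgcn5 Δelp3, 1.69% in Δmst2 Δelp3 and 19.7% in Δgcn5 Δmst2. Within a date it was 27.2% in mst1-ts, 8.61% in Δgcn5 Δmst2 and 6.32% in Δgcn5 Δelp3 against Δelp3. Other counts below are given without that share, except where it is printed. With array weights, estimated gene by gene, the respiratory counts were 12 (4 rose, 8 fell) in mst1-ts, 5 in Δelp3, 2 in Δgcn5, 16 in Δgcn5 Δelp3, 3 in Δgcn5 Δelp3 against Δelp3 and 26 in Δgcn5 Δmst2, and the ribosome counts were 29 in mst1-ts, 21 in Δelp3, 1 in Δgcn5, 25 in Δgcn5 Δelp3, 8 in Δgcn5 Δelp3 against Δelp3, 11 in Δgcn5 Δmst2, 22 in Δmst2 Δelp3 and 2 in the interaction of gcn5 with mst2. With a 1.7-fold minimum the respiratory counts were 1 in mst1-ts, 3 in Δmst2 Δelp3 and 0 in Δelp3, Δgcn5 Δelp3 and Δgcn5 Δmst2, and the ribosome counts 6 in mst1-ts, 4 in Δelp3, 3 in both Δgcn5 Δelp3 and Δmst2 Δelp3 and 0 in Δgcn5 Δmst2. With date as a covariate the respiratory count was 10 in Δgcn5 Δmst2 and 0 in Δelp3, Δgcn5 Δelp3 and Δmst2 Δelp3, and the ribosome count was 2 in Δgcn5 Δmst2, 0 in Δelp3 and 1 in each of Δgcn5 Δelp3 and Δmst2 Δelp3, where mrpl17 rose and the balance of calls turned from falls to a rise. Within a date the respiratory counts were 4 in Δgcn5 Δmst2 and 1 in Δgcn5 Δelp3 against Δelp3, and the ribosome counts 10 in mst1-ts and 0 in Δgcn5 Δmst2. With only both groups in the fit the respiratory counts were 1 in mst1-ts, 1 in Δelp3, 3 in Δgcn5 Δelp3, 1 in Δgcn5 Δelp3 against Δelp3, 8 in Δgcn5 Δmst2 and 2 in Δmst2 Δelp3, and the ribosome count was 1 in Δgcn5 Δmst2. With platform symbols the respiratory count in Δgcn5 Δelp3 was 2. Without replicate 2 of Δgcn5 and replicate 2 of Δmst2, whose libraries went against their labels, it was 4 in each of Δelp3, Δgcn5 and Δgcn5 Δelp3 and 1 in Δgcn5 Δelp3 against Δelp3, and the ribosome count was 1 in the interaction of gcn5 with mst2. Over all features 26.5%, 6.08% and 27.3% were then called in Δelp3, Δgcn5 and Δgcn5 Δelp3, and 2.71% in Δgcn5 Δelp3 against Δelp3. Without wild-type replicate 2 as well, a setting chosen after seeing the data, the respiratory counts were 2 in Δgcn5, 3 in Δgcn5 Δelp3, 1 in Δgcn5 Δelp3 against Δelp3 and 5 in Δmst2 Δelp3, and the ribosome count 1 in Δgcn5 Δmst2. Leaving out 1 array at a time gave respiratory counts of 2 to 5 in mst1-ts, 0 to 3 in Δelp3, 0 to 1 in Δgcn5, 0 to 2 in Δgcn5 Δelp3, 8 to 15 in Δgcn5 Δmst2, 2 to 11 in Δmst2 Δelp3 and 0 to 1 in the interaction of gcn5 with mst2. It gave ribosome counts of 7 to 16 in mst1-ts, 8 to 12 in Δelp3, 2 to 8 in Δgcn5 Δelp3, 0 to 3 in Δgcn5 Δmst2, 4 to 11 in Δmst2 Δelp3 and 0 to 1 in the interaction of gcn5 with mst2. Without wild-type replicate 1 the respiratory count in mst1-ts was 3, with 2 that rose and 1 that fell, and the counts in Δmst2 Δelp3 were 2 respiratory and 6 ribosome genes. With a replicate block in the fit of all arrays no count moved by over 1.5 times: the respiratory counts were 16 in Δgcn5 Δmst2, 3 in mst1-ts, 2 in Δelp3 and 9 in Δmst2 Δelp3, and the ribosome counts 15, 11, 8, 4 and 15 in mst1-ts, Δelp3, Δgcn5 Δelp3, Δgcn5 Δmst2 and Δmst2 Δelp3. With only the Δgcn5, Δmst2 and wild-type arrays, a setting chosen after seeing the data, Δgcn5 and Δmst2 each had 0 genes called with and without the block, where 0% of all features were called. The cause of these shifts was not tested. Of the family medians under all alternatives 313 stayed within the spread between replicates and 9 moved, and of the tests of single named genes 587 kept their call, 140 lost it and 0 reversed.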
